A study of Mus musculus with 8 samples.

Results

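miR-206 and miR-133b are muscle miRNAs (myomiRs) that lie a few kilobases apart in the mouse genome. Both were picked by name from an RT-qPCR panel of mouse gastrocnemius muscle, where they are 2 of 688 miRNAs and are measured by 1 assay each. They were chosen with their values after muscle injury already known, in particular the prospect that they move apart between the early time points, so the injury and day values are given as a description with no test. The panel was run on 8 RNA pools of female C57Bl/6 mice aged 6 to 8 weeks, in a model of neurogenic heterotopic ossification (NHO), the growth of bone inside muscle after a lesion of the central nervous system. Muscles were injected with cardiotoxin (CDTX), a snake venom toxin that destroys myofibers, or with phosphate-buffered saline (PBS), after spinal cord transection (SCI) or SHAM surgery, and were taken at day 2 (D2) or day 4 (D4). The groups were CDTX + SCI, CDTX + SHAM, PBS + SCI and PBS + SHAM at each day, with 1 pool of 3 muscles per group and day. PBS muscles had the needle injection and SHAM mice had surgery, so no pool was of untouched muscle. CDTX went into the left leg and PBS into the right leg of every mouse. Pools that differ only by injection may therefore hold legs of the same mice, which the sample labels do not state.

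A mature miRNA guides a silencing complex to messenger RNAs, mainly through its seed, bases 2 to 8. Myofibers of all skeletal muscles are rich in miR-1 and miR-133a. miR-206 belongs to the miR-1 family and is known from developing and regenerating muscle, from slow fibers and from myoblasts that leave the cell cycle, where it represses among others Pax7, a transcription factor of satellite cells. miR-133b belongs to the miR-133 family, known in muscle for effects on myoblast proliferation and on brown fat versus muscle fate through Prdm16. The mouse hairpins of both miRNAs lie within the span of Lincmd1 (linc-MD1), a long noncoding RNA of differentiating myoblasts.

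The sequences of the members are shown because their seeds differ although their genes are neighbors. In the RefSeq annotation of GRCm38.p6, the mature miR-206 lies at chr1:20679055-20679076 and the mature miR-133b at chr1:20682834-20682855, both on the plus strand, and the seed is in capitals.
mmu-miR-206-3p: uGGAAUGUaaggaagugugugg
mmu-miR-133b-3p: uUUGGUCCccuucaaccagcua
The hairpins they are cut from, Mir206 at chr1:20679010-20679082 and Mir133b at chr1:20682769-20682887, are separated by 3686 bases. The mature strand measured by the panel is in capitals.
Mir206: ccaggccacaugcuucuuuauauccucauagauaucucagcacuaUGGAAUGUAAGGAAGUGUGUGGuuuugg
Mir133b: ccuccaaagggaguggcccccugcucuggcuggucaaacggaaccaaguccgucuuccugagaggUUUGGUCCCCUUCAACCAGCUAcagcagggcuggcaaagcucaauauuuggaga
Aligned from their first base, the mature strands had the same base at 4 of 22 positions. Among the 750 target sequences listed for the panel, exactly 1 was identical to each member. The miR-206 seed was shared by 3 targets, those named miR-206-3p, miR-1-3p and miR-1a-3p, and miR-206 had the same base as miR-1a-3p at 18 of 22 positions. The miR-133b seed was shared by 2 targets, miR-133b-3p and miR-133a-3p, which had the same base at 21 of 22 positions. How far the assays of such near-identical miRNAs read each other cannot be told from these tables, and miR-133b in particular is to be read with miR-133a-3p beside it.

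The measured quantity was the quantification cycle (Cp), which is lower by 1 cycle for about 2 times more template. Relative expression of a miRNA in a pool was computed from the mean Cp of 3 reference miRNAs (miR-125b-5p, miR-24-3p and miR-23b-3p), and is given either as such or on the log2 scale. Between 141 and 165 miRNAs per pool had a Cp of at most 32, the threshold for detection, 116 had it in all 8 pools, and 388 to 436 of 755 assays gave 36, the last cycle recorded. Both members passed the threshold in all pools. The reference mean Cp lay between 24.7 and 25.6. Since each condition is 1 pool, variation between mice was not measured, and ratios were sorted by size alone, at 2-fold. Technical error can be gauged from the 14 miRNAs for which a second assay of the same name, species prefix removed, also passed the threshold. Over 68 pairs, the log2 ratios of first and second assays lay apart by a root mean square of 0.35 and a maximum of 0.95. Comparisons with either assay past the threshold were left out, and error there can exceed this maximum. For miR-1-3p at D2, CDTX + SHAM and PBS + SHAM had log2 levels of -0.74 and 4.60 by the first assay. By the second assay, past the threshold in CDTX + SHAM, they were -7.38 and -5.61. Neither member has a second assay. As a check of the tissue, 4 of the 6 striated muscle markers were detected in every pool and the liver marker miR-122-5p stood at 36 in all 8. The 4 were miR-1-3p, miR-133a-3p and both members, so the members are part of this check. The others, miR-208b-3p and miR-499-5p, passed the threshold in no pool.

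miR-206 was higher in CDTX than in PBS muscle at D4 and lower at D2, and miR-133b was lower at both days. At D4, miR-206 had a Cp of 23.37 in CDTX + SCI and 23.59 in CDTX + SHAM, against 24.26 in PBS + SCI and 24.86 in PBS + SHAM. Its relative expression was 3.60 in CDTX + SCI and 4.07 in CDTX + SHAM, against 1.88 in PBS + SCI and 1.41 in PBS + SHAM. Both CDTX pools of D4 lay above all 4 PBS pools. At D2, miR-206 had a Cp of 26.47 in CDTX + SCI and 25.98 in CDTX + SHAM, against 24.24 in PBS + SCI and 23.98 in PBS + SHAM. Relative expression of miR-206 was then 0.515 in CDTX + SCI and 0.739 in CDTX + SHAM, against 1.54 in PBS + SCI and 1.63 in PBS + SHAM. The order of the injections was the reverse of that at D4, with both CDTX pools of D2 below all 4 PBS pools. miR-206 varied 7.89-fold over the 8 pools, and both ends of that range were CDTX pools.

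At D4, miR-133b had a Cp of 22.16 in CDTX + SCI and 22.42 in CDTX + SHAM, against 20.64 in PBS + SCI and 20.41 in PBS + SHAM. Its relative expression was 8.32 in CDTX + SCI and 9.15 in CDTX + SHAM, against 23.2 in PBS + SCI and 30.8 in PBS + SHAM. At D2, the Cp was 22.44 in CDTX + SCI and 22.77 in CDTX + SHAM, against 20.17 in PBS + SCI and 19.95 in PBS + SHAM. The CDTX and PBS pools did not overlap at either day. How many of all miRNAs separate in this way, or as miR-206 did, was not counted, so neither separation is shown to be particular to a member. Large shares of all miRNAs moved with CDTX. At least 2-fold lower were 24.1% with SCI and 24.8% with SHAM at D4, and 18.7% and 16.7% at D2. Relative expression at D2 was 8.42 in CDTX + SCI and 6.84 in CDTX + SHAM, against 25.8 in PBS + SCI and 26.6 in PBS + SHAM, and over all 8 pools miR-133b varied 4.50-fold. miR-133b gave the first or the second earliest signal of the panel in every pool. In both CDTX pools of D4 it came first, ahead of miR-133a-3p, which was earlier than miR-133b in the other 6. miR-206 stood between rank 4 and rank 16 by Cp, and at 13 and 16 in the CDTX pools of D2. Since assays can differ in efficiency, these ranks order signals and not amounts.

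**Figure D1:**
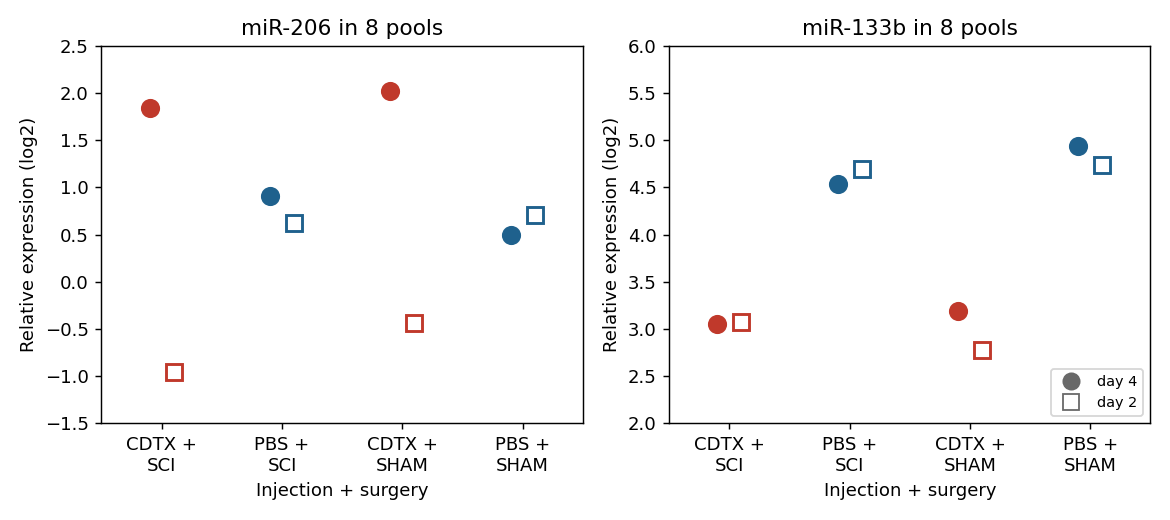
Relative expression (log2) of miR-206 (left) and miR-133b (right) in each injection and surgery, with 1 point per pool (filled circle, day 4; open square, day 2). The CDTX pools of miR-206 lie above all PBS pools at day 4 and below them at day 2, whereas both days of miR-133b lie between 2.77 and 3.19 in CDTX and between 4.53 and 4.94 in PBS pools. The vertical axes have the same length in log2 units and start at different levels.

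Ordered by level, the 8 pools fell into separate sets for each member. For miR-206 the order on the log2 scale was CDTX + SHAM D4 (2.02), CDTX + SCI D4 (1.85), PBS + SCI D4 (0.91), PBS + SHAM D2 (0.70), PBS + SCI D2 (0.62), PBS + SHAM D4 (0.49), CDTX + SHAM D2 (-0.44) and CDTX + SCI D2 (-0.96). Of the 7 gaps between neighbors, 3 exceeded the 0.35 that separates assays of the same name. These were 0.93 below the CDTX pools of D4, 0.93 below the PBS pools, and 0.52 between the CDTX pools of D2. For miR-133b the CDTX levels were 3.19 in CDTX + SHAM D4, 3.07 in CDTX + SCI D2, 3.06 in CDTX + SCI D4 and 2.77 in CDTX + SHAM D2. The PBS levels were 4.94 in PBS + SHAM D4, 4.73 in PBS + SHAM D2, 4.69 in PBS + SCI D2 and 4.53 in PBS + SCI D4. Only the gap of 1.34 between the CDTX and PBS pools, 1 of 7, exceeded 0.35, and the neighbors within each injection could not be told apart by that measure.

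The first comparison concerned CDTX injury at each day. At D4, the log2 ratio of CDTX over PBS for miR-206 was 0.93 with SCI (1.91-fold, place 33 of 133 when all miRNAs are ranked from the highest ratio) and 1.53 with SHAM (2.89-fold, place 22 of 125). The SHAM ratio alone was at least 2-fold higher, as were 28% of miRNAs in that comparison and 21.8% with SCI. The SCI ratio depended on the reference, at 0.53 with miR-24-3p alone, 1.08 with miR-23b-3p alone, 1.19 with miR-125b-5p alone and 0.695 in the deposited ratios. miR-133b stood at -1.48 with SCI (place 119) and at -1.75 with SHAM (place 112), at least 2-fold lower in both, as were 24.1% of miRNAs with SCI and 24.8% with SHAM. miR-206 was therefore far from the top of the D4 ratios, which was held by miR-142-5p with SCI and by miR-214-5p with SHAM.

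At D2, miR-206 stood at -1.58 with SCI (place 129 of 134) and at -1.14 with SHAM (place 116 of 132). miR-133b stood at -1.62 with SCI (place 131) and at -1.96 with SHAM (place 130). All 4 ratios were thus at least 2-fold lower, as were 18.7% of all miRNAs with SCI and 16.7% with SHAM. In the SHAM comparison the lowest places next to miR-133b were held by miR-133a-3p (-1.98), the other bearer of its seed, and miR-378a-3p (-1.72), a miRNA of muscle metabolism hosted by Ppargc1b. With miR-23b-3p alone as reference, miR-206 with SHAM was at -0.82 and thus short of 2-fold.

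The second comparison concerned the days within each condition. miR-206 at D4 over D2 was 2.80 in CDTX + SCI (6.98-fold) and 2.46 in CDTX + SHAM (5.50-fold), against 0.29 in PBS + SCI and -0.21 in PBS + SHAM. It had the highest ratio of 135 miRNAs in CDTX + SCI and the 4th highest of 137 in CDTX + SHAM, where 5.93% and 18.2% of miRNAs were at least 2-fold higher. In the PBS pools 0% of miRNAs with SCI and 2.14% with SHAM were at least 2-fold higher, and miR-206 was in neither count. miR-133b at D4 over D2 was -0.02 in CDTX + SCI and 0.42 in CDTX + SHAM, against -0.16 in PBS + SCI and 0.21 in PBS + SHAM. None of these reached 2-fold.

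Both comparisons were joined in the change of the CDTX over PBS ratio, D4 minus D2. For miR-206 it was 2.51 with SCI (5.70-fold) and 2.67 with SHAM (6.36-fold), the highest of 125 and of 118 miRNAs. For miR-133b it was 0.14 with SCI (place 59) and 0.21 with SHAM (place 52), near the median of 0.08 that all miRNAs had under either surgery. The SD over miRNAs was 0.71 with SCI and 0.84 with SHAM. Changes of at least 2-fold upward were seen in 8.8% of miRNAs with SCI and 16.9% with SHAM. The next highest after miR-206 were miR-34a-5p (2.44), a target of p53, with SCI and miR-1-3p (2.45) with SHAM. The value of miR-1-3p rested on its Cp of 26.28 in CDTX + SHAM at D2, where its second assay gave a Cp of 32.92, close to its 32.84 in CDTX + SCI. Of the 24 miRNAs with SCI and the 22 with SHAM that were at least 2-fold lower at D2, miR-206 was the 1 that stood above 0 at D4 under each surgery. In settings tried after seeing the data, miR-206 was alone in this with 5 of 5 other normalizations with SCI. With SHAM it was alone with 2 of 5, joined by 1 or 2 other miRNAs with another 2 of 5, and not in the set with miR-23b-3p alone. With the 3 references, another of the 22 miRNAs with SHAM stood at -0.00 at D4, barely outside the set.

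**Figure D2:**
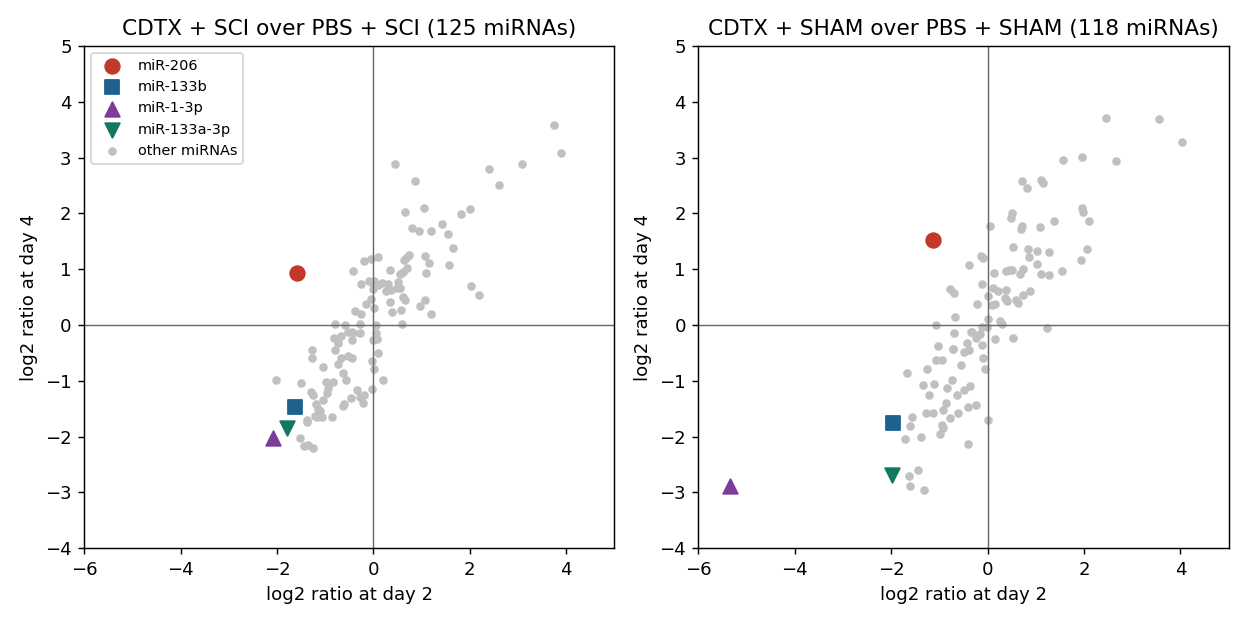
Log2 ratio of CDTX over PBS at day 2 (horizontal) and day 4 (vertical) for each miRNA with a Cp of at most 32 in the 4 pools of a surgery, with SCI at left (125 miRNAs) and SHAM at right (118). miR-206 lies in the upper left quadrant, at 0.93 on day 4 and -1.58 on day 2 with SCI, and at 1.53 on day 4 and -1.14 on day 2 with SHAM, while miR-133b, miR-133a-3p and miR-1-3p lie in the lower left.

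A difference between 2 miRNAs within a pool needs no reference miRNA. At D4, miR-206 minus miR-133b on the log2 scale was -1.21 in CDTX + SCI and -1.17 in CDTX + SHAM, against -3.62 in PBS + SCI and -4.45 in PBS + SHAM. At D2 it was -4.03 in CDTX + SCI and -3.21 in CDTX + SHAM, against -4.07 in PBS + SCI and -4.03 in PBS + SHAM. The CDTX pools of D4 stood apart from the other 6 pools, which lay between -4.45 and -3.21. At D4 the difference moved with CDTX by 2.41 with SCI (5.31-fold) and by 3.28 with SHAM (9.71-fold). At D2 it moved by 0.04 with SCI and by 0.82 with SHAM, and the 4 PBS pools themselves spanned 0.83. The moves at D4 were thus larger than the span of the PBS pools, and those at D2 were not.

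Within each seed family the members also moved against their partners. At D4, miR-133b minus miR-133a-3p was 0.33 in CDTX + SCI and 0.53 in CDTX + SHAM, against -0.04 in PBS + SCI and -0.40 in PBS + SHAM. At D2 it was -0.15 in CDTX + SCI and -0.19 in CDTX + SHAM, against -0.32 in PBS + SCI and -0.21 in PBS + SHAM. The sign was positive in the CDTX pools of D4 and negative in the other 6. The move with CDTX at D4, 0.37 with SCI and 0.93 with SHAM, is to be set beside a span of 0.36 over the PBS pools and the 0.35 between assays of the same name. miR-133a-3p itself was at -1.85 with SCI and -2.68 with SHAM at D4, lower than miR-133b in both.

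miR-206 minus miR-1-3p, its partner by seed, was -0.26 in CDTX + SCI and 0.05 in CDTX + SHAM at D4, against -3.22 in PBS + SCI and -4.37 in PBS + SHAM. The difference thus moved with CDTX by 2.96 with SCI and by 4.42 with SHAM. With the second assay of miR-1-3p, whose Cp reached 33.55 and so lay past the threshold in CDTX pools, the moves were 3.11 and 4.24. At D2 the moves were 0.50 with SCI and 4.20 with SHAM by the first assay, and -0.03 with SCI and 0.63 with SHAM by the second. The D4 moves were of like size by either assay, and the D2 move with SHAM was not. The first assay of miR-1-3p carries a human name and the second a rat name. Whether both read the same miRNA was not tested.

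**Figure D3:**
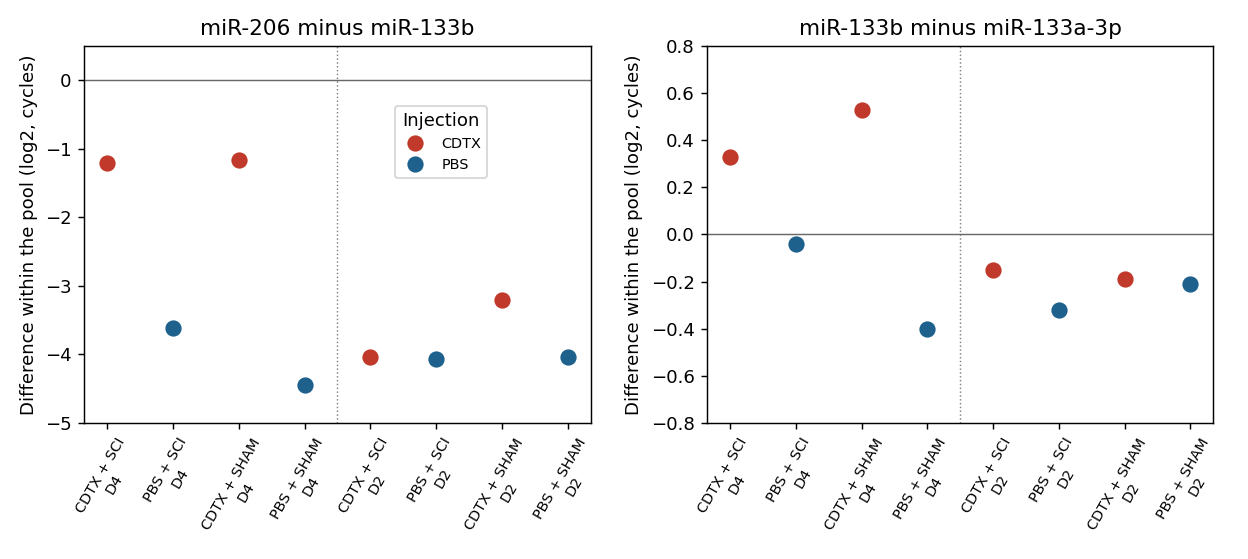
Difference on the log2 scale (in cycles) between miR-206 and miR-133b (left) and between miR-133b and miR-133a-3p (right) within each of the 8 pools, with CDTX in red and PBS in blue and a dotted line between the days. At D4 the CDTX pools stand at -1.21 and -1.17 in the left panel and at 0.33 and 0.53 in the right panel, above the PBS pools of the same day.

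Among the other myomiRs, miR-206 was the 1 that left the group at D4. Of the 10 listed, all are on the panel and 6 were kept in each CDTX comparison: miR-1-3p, miR-133a-3p, miR-133b, miR-206, miR-486-5p and miR-378a-3p. At D4, 5 of 6 were at least 2-fold lower under each surgery, and the medians of the list were -1.56 with SCI and -1.93 with SHAM, against 0.01 and 0.02 for all miRNAs. At D2, all 6 were at least 2-fold lower under each surgery, and the medians were -1.60 with SCI and -1.84 with SHAM, against -0.03 and 0.005 for all miRNAs. miR-486-5p, a miRNA of muscle and of red blood cells, was at -1.41 with SCI and -1.81 with SHAM at D4. miR-208a-3p, of the cardiac myosin gene Myh6, stood at 36 in all pools. The list was drawn up with these values known and shares 2 of its names with the members.

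A list of 20 miRNAs of myogenic progenitors and differentiation moved in no single direction. By the same 2-fold rule, 1 of the 7 kept with SCI at D4 stood higher and 3 lower, and 2 of 8 higher and 1 lower at D2. With SHAM, 2 of 7 stood higher and 3 lower at D4, and 2 of 9 higher and 1 lower at D2. The medians of these CDTX over PBS ratios lay between -0.20 and 0.25. Over all miRNAs at D2, 17.2% stood higher with SCI and 22.7% with SHAM. miR-221-3p, a miRNA of proliferating myoblasts, was at 2.94 with SCI and 3.26 with SHAM at D2. miR-214-3p, made from the Dnm3os transcript, was at 1.99 with SCI and 2.96 with SHAM at D4. In D4 over D2, 1 of 10 stood higher and 2 lower in CDTX + SCI, and 4 of 12 higher and 0 lower in CDTX + SHAM. Over all miRNAs, 5.93% stood higher and 12 of 135 lower in CDTX + SCI, and 18.2% higher and 5 of 137 lower in CDTX + SHAM. The lower ones of the list in CDTX + SCI, named after their values were seen, were miR-26a-5p (-1.03) and miR-181a-5p (-1.06). miR-31-5p, known to hold back Myf5 translation in quiescent satellite cells, was at 1.80 for D4 over D2 in CDTX + SCI and 2.23 in CDTX + SHAM. miR-351-5p, of the miR-322 and miR-503 cluster on the X chromosome, was at 3.20 in CDTX + SHAM, above the 2.46 of miR-206 there.

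Markers of other cells moved with CDTX as well. The summed relative expression of 7 leukocyte miRNAs was 1.83 to 3.23 in the CDTX pools and 0.413 to 0.448 in the PBS pools, with 6 of 7 detected in each CDTX pool and 3 to 6 in the PBS pools. Of those kept in CDTX over PBS at D4, 4 of 5 with SCI and 2 of 3 with SHAM were above 0. The exception was miR-150-5p, at -1.40 with SCI and -1.70 with SHAM at D4, and at -0.22 and 0.01 at D2. The sum of the 4 Dnm3os miRNAs of fibroblasts, all detected in every pool, was 0.629 to 2.05 in CDTX and 0.278 to 0.400 in PBS pools. The striated muscle sum, of which miR-206 and miR-133b are part, was 16.0 to 24.4 in CDTX and 66.4 to 102 in PBS pools. Smooth muscle markers summed to 0.652 to 1.32 in CDTX and 1.53 to 1.87 in PBS pools, and endothelial markers to 0.528 to 1.48 in CDTX and 1.25 to 1.59 in PBS pools. Erythroid markers summed to 0.150 to 0.189 in CDTX and 0.391 to 0.505 in PBS pools, and neuronal markers, of which at most 1 of 3 was detected, to 0.0139 to 0.0202 in CDTX and 0.0215 to 0.0237 in PBS pools. The part of these other cells in the values of miR-206 and miR-133b was not tested. In whole muscle, fewer cells of a type and less RNA per cell cannot be told apart.

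The miRNAs whose levels ran most like each member were taken by Pearson's r over the 8 pools among the 116 miRNAs detected throughout. These coefficients are descriptions, since the pools fall into CDTX and PBS and all share the same references. Highest for miR-206 were miR-379-5p (r = 0.81, Spearman's rho = 0.74), miR-434-5p (0.78 and 0.83), miR-28-5p (0.77 and 0.50), miR-322-5p (0.71 and 0.43) and miR-98-5p (0.70 and 0.62). miR-379-5p and miR-434-5p come from the imprinted Dlk1-Dio3 region. miR-379-5p moved as miR-206 did but less far, with CDTX over PBS at 0.97 with SCI and 1.07 with SHAM at D4, and at -0.42 with SCI and -0.38 with SHAM at D2. The lowest r was that of miR-125b-5p (-0.75 and -0.60), which is itself a reference. miR-133b stood 60th of 115 in likeness to miR-206 (0.09 and 0.05).

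For miR-133b the highest were miR-196a-5p (r = 0.99, rho = 0.90), a miRNA of the Hox clusters, miR-486-5p (0.98 and 0.83), miR-378a-5p (0.97 and 0.95), miR-133a-3p (0.97 and 0.81) and miR-328-3p (0.95 and 0.90). The lowest was miR-20a-5p of the miR-17 to miR-92 cluster (-0.995 and -0.98), at 1.63 with SCI and 1.87 with SHAM at D4 in CDTX over PBS, and at 1.54 with SCI and 2.10 with SHAM at D2. The likeness of miR-133b followed the split between CDTX and PBS pools, in which its pools did not overlap. miR-1-3p, which shares its seed with miR-206 and not with miR-133b, had an r of 0.91 with miR-133b and 0.16 with miR-206.

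The third comparison concerned SCI, which the choice of the members did not rest on. In the 4 pairs of SCI and SHAM pools, the log2 ratio of SCI over SHAM for miR-206 was -0.18 in CDTX at D4, -0.52 in CDTX at D2, 0.42 in PBS at D4 and -0.08 in PBS at D2. For miR-133b it was -0.14 in CDTX at D4, 0.30 in CDTX at D2, -0.41 in PBS at D4 and -0.04 in PBS at D2. Each member was thus lower with SCI in 3 of 4 pairs, and none of the 8 ratios reached 2-fold. The median of all miRNAs was -0.29 in CDTX at D4, -0.14 in CDTX at D2, -0.22 in PBS at D4 and 0.04 in PBS at D2. With the global mean as reference, the CDTX pair of D4 was at 0.11 for miR-206 and 0.15 for miR-133b, so the count depends on the reference. Among all miRNAs of the CDTX pools, 0% passed 2-fold upward and 8.92% downward at D4, and 1.46% upward and 0% downward at D2. In PBS pools 0% passed it in either direction at D4, and 0.658% upward and 0.658% downward at D2.

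Over all 4 pairs, a limma fit on 116 miRNAs gave a mean ratio for miR-206 of -0.09 ± 0.168 (SE), with a 95% interval of -0.48 to 0.30 and a Benjamini-Hochberg adjusted p of 0.861. For miR-133b the limma fit gave -0.07 ± 0.148 (SE), with an interval of -0.42 to 0.27 and an adjusted p of 0.861. The exact two-sided sign-flip permutation test over 4 pairs gave p = 0.625 for each member, where 0.125 is the smallest p that 4 pairs can give. No difference with SCI was thus detectable with these pools. Without the CDTX pair of D2 the mean of miR-206 was 0.05, and without the PBS pair of D4 that of miR-133b was 0.04, so the sign of each rests on 1 pair. By limma 0 of 116 miRNAs passed an adjusted p of 0.05, 15 had an unadjusted p below 0.05, and the lowest adjusted p was 0.219. These p-values rest on the spread between pairs of pools and not between mice. The limma fit also draws the spread of each miRNA toward that of all 116. The CDTX and PBS pairs of a day may hold legs of the same mice, so the 4 pairs may not be independent. In the limma fit, an SCI effect that differs between injections or days counts as error.

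**Figure D4:**
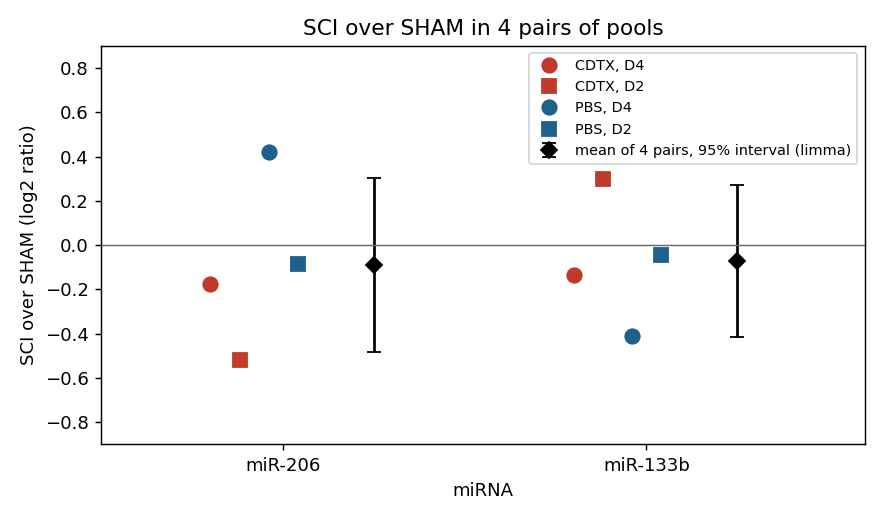
Log2 ratio of SCI over SHAM for miR-206 and miR-133b in the 4 pairs of pools (red, CDTX; blue, PBS; circle, D4; square, D2), with the mean of the 4 pairs and its 95% interval from limma in black. The pairs lie on both sides of 0, from -0.52 to 0.42 for miR-206 and from -0.41 to 0.30 for miR-133b, and both intervals include 0.

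In 2 pairs the SCI over SHAM ratios of the members had opposite signs. The ratio of miR-206 was the higher in PBS at D4 and the lower in CDTX at D2. In the PBS pair of D4, miR-206 minus miR-133b was -3.62 with SCI against -4.45 with SHAM, and in the CDTX pair of D2 it was -4.03 with SCI against -3.21 with SHAM. Those PBS pools of D4 are the ends of the 0.83 that all 4 PBS pools spanned. The gap of the CDTX pair of D2 was no larger, so neither gap exceeds that span. In the PBS pair of D4 miR-206, at 0.42, was the 3rd highest of 137 miRNAs, whereas miR-133b was 98th at -0.41. Of the 7 myomiRs kept in that pair, miR-206 was the 1 above 0 and the other 6 lay below it, down to -0.77 for miR-133a-3p and -0.73 for miR-1-3p. The median of all miRNAs was -0.22, so most miRNAs lay below 0 in this pair, and the count is not particular to myomiRs. The exact share below 0 was not counted. Under the 5 other normalizations miR-206 lay between 0.36 and 0.64 and miR-133b between -0.47 and -0.19 in this pair. Each pair rests on 2 pools with no replicate.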

How the data were processed

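RNA of 8 pools, each of 3 gastrocnemius muscles, was reverse transcribed and measured by the authors with SYBR Green LNA assays of a mouse and rat miRNome panel. The authors deposited 1 Cp per assay and pool, before normalization, and a table of the ratio of each target to reference miRNAs. On the log2 scale the deposited ratio is the target's Cp subtracted from an average of 4 references, miR-125b-5p, miR-24-3p, miR-23a-3p and miR-16-5p, within 0.00668 cycles over the 107 assays with a ratio above 0.01 in every pool, whereas the methods name 3 references. Another deposited table holds the authors' own fold changes between pools (7 columns) and was not used. A genome build is not given in the sources used here. Sequences and positions are those of RefSeq on GRCm38.p6, matched by miRNA name and equal to the targets listed for the panel.

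Groups came from the sample labels. Relative expression was recomputed from Cp with the 3 references of the methods. A comparison of 2 pools kept miRNAs whose Cp did not exceed 32 in either. The 755 assays included 3 non-miRNA assays, which were left out, and for the 64 miRNAs with a second assay the mouse-named or else the earlier assay was used. SCI was tested over SHAM with limma 3.58.1 in R 4.3.3 (terms for injection, day, their interaction and surgery, 3 residual degrees of freedom), after the fit and the ratios were tested on simulated data. Tables were made with Python 3.11.15, pandas 2.3.3, numpy 2.4.6 and scipy 1.17.1, and figures with matplotlib 3.10.9. The miRNAs named are both members, those sharing a seed with a member, the myomiR list, at most 4 others of a list, the 5 most and the 1 least alike in level, and neighbors in a ranking. Members and lists were chosen with earlier results of these data known. Alternatives were 5 normalizations, 3 filters on Cp, 2 thresholds of fold, a limma fit without the interaction term and leaving out each pair of pools. The single pool per condition limits precision.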

Additional observations from a re-analysis of the deposited data

Results flagged for a closer look

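The ratio of CDTX over PBS for miR-206 had opposite signs at the 2 days under each surgery. It was 0.93 with SCI and 1.53 with SHAM at D4, and -1.58 with SCI and -1.14 with SHAM at D2. The difference between the days was not tested, as the members were chosen with it known.

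The ratio of D4 over D2 for miR-133b had opposite signs with SCI and with SHAM. It was -0.02 in CDTX + SCI against 0.42 in CDTX + SHAM, and -0.16 in PBS + SCI against 0.21 in PBS + SHAM. This difference was not tested, and all 4 values are below 2-fold.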

How the results depend on the processing

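The 36 values of the members given without a test were recomputed under 148 alternatives in all. None changed sign where it had been at least 2-fold, 138 moved by less than the technical error, and 10 moved further. The 138 include the difference of miR-206 and miR-133b within each of the 8 pools, taken from the deposited ratios. The references cancel in that difference, so it could not move. With miR-24-3p alone as reference, CDTX over PBS at D4 was 0.53 with SCI and 1.16 with SHAM for miR-206, and -1.88 with SCI and -2.12 with SHAM for miR-133b. With miR-23b-3p alone, CDTX over PBS at D2 with SCI was -1.16 for miR-206 and -1.20 for miR-133b. With miR-125b-5p alone, D4 over D2 in CDTX + SHAM was 2.81 for miR-206 and 0.77 for miR-133b, and the change of the CDTX ratio with SHAM was 3.08 and 0.62. Another 3 values changed their side of 2-fold, all of miR-206 in CDTX over PBS: 1.08 with SCI at D4 and -0.82 with SHAM at D2 with miR-23b-3p alone, and 1.19 with SCI at D4 with miR-125b-5p alone. The cause of these moves was not tested.

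The SCI over SHAM mean of the 4 pairs changed sign under some settings, always within its interval. With the global mean as reference it was 0.0424 for miR-206 and 0.0599 for miR-133b. Without the interaction of injection and day in the limma fit, the means were the same and the 95% intervals wider, -1.19 to 1.01 for miR-206 and -0.45 to 0.31 for miR-133b. Leaving out 1 pair of pools at a time gave -0.26 to 0.0533 for miR-206, with 0.0533 without the CDTX pair of D2, and -0.20 to 0.0400 for miR-133b, with 0.0400 without the PBS pair of D4. The count of miRNAs past an adjusted p of 0.05 by limma was 0 under each alternative run, with 4 to 16 at an unadjusted p below 0.05.

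Counts of miRNAs past a fold threshold varied more. At D4, 11 to 52 miRNAs were higher with CDTX under SCI (29 as given) and 12 to 67 under SHAM (35), and 12 to 43 were lower under SCI (32) and 17 to 42 under SHAM (31). At D2, 12 to 37 were higher under SCI (23) and 15 to 52 under SHAM (30), and 5 to 41 were lower under SCI (25) and 8 to 39 under SHAM (22). Between surgeries, 3 to 45 were lower with SCI in CDTX pools at D4 (14). At D4 over D2, 3 to 23 were higher in CDTX + SCI (8) and 10 to 49 in CDTX + SHAM (25). The count that were lower at D2 and above 0 at D4 with SHAM (1) was 0 with miR-23b-3p alone, 2 with miR-125b-5p alone and 3 in the deposited ratios, an alternative chosen after seeing the data. No second assay of either member exists to be tried. With 1 pool per condition, no replicate number could be used as a block; the SCI over SHAM fit pairs pools by injection and day.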
